A study of Mus musculus with 9 samples.

Results

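Lymphoid priming genes are genes of the lymphocyte programme that blood stem and multipotent cells can transcribe before any commitment to the lymphoid lineage. Here they were 10 genes chosen by symbol: the transcription factor genes Tcf3, Ikzf1, Ikzf2, Bcl11a and Satb1, the receptor genes Il7r and Notch1, the enzyme gene Dntt, and Cd52 and Lsp1, which encode leukocyte proteins. They are 10 of the 22322 genes in the deposited table, and 8 of them are among the 10866 that averaged 1 FPKM or more over all libraries and were tested. FPKM is a fragment count scaled to transcript length and library size. Il7r and Dntt lay under that minimum.

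The libraries were made from long-term haematopoietic stem cells (LT-HSCs), bone marrow cells that had been sorted as Lin-, c-Kit+, Sca-1+ (LSK) cells with CD150 but without CD48 and CD135 on their surface. There were 3 libraries from Cxcl10-/- mice, which lack the chemokine gene Cxcl10, 3 from Cxcr3-/- mice, which lack the gene of its receptor Cxcr3, and 3 from wild-type (WT) mice. All mice were C57BL/6, aged 6 to 8 weeks, and no other allele, treatment, litter, day or batch is given. Each library came from 500 to 800 sorted cells of 1 mouse, and polyA RNA was amplified as cDNA before the libraries were made. How the knockouts were made, and whether the genes are missing from all cells, is not given in the sources used here.

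In mice, the E protein E2A, encoded by Tcf3, and Ikaros, encoded by Ikzf1, switch on lymphoid genes in early progenitors, among them genes for the interleukin-7 receptor and for the recombination machinery. Il7r and Dntt are known as genes of lymphoid-primed and common lymphoid progenitors, downstream of the stem cell. E proteins bind a short DNA word, the E-box, and Ikaros proteins bind around a core of GGGAA.

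To show what these factors could read at the members themselves, the RefSeq promoter windows (GRCm38.p6, 250 bases before to 50 bases after the transcription start) were searched on both strands for the E-box CANNTG and for the Ikaros core GGGAA, which reads TTCCC on the other strand. A window was found for 7 of the 10 members, and none for Ikzf2, Lsp1 and Cd52. Of the 12 windows of these members, 8 held an E-box and 8 an Ikaros core, against 72.3% and 62.7% of all 32851 windows of the same length. Satb1 gave 5 of the 12, and its windows at chr17:51812005-51812304 and chr17:51812135-51812434 share bases. The counts are therefore of windows, not of members. Each word was counted on its own, so a base can belong to both. Shown are the windows of Tcf3, the member with the largest fold change in Cxcr3-/- cells, and of Il7r and Dntt, the members at or near 0. E-boxes are in capitals, and each sequence runs 5′ to 3′ on the gene's strand. A match is a description of the letters, not of binding.
Tcf3, chr10:80433586-80433885, minus strand: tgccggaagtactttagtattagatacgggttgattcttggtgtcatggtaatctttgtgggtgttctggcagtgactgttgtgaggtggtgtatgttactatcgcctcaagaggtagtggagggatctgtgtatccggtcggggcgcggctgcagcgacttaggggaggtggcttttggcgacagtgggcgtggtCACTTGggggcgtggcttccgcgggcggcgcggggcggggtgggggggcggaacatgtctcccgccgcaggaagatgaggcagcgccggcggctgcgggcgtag
Il7r, chr15:9529827-9530126, minus strand: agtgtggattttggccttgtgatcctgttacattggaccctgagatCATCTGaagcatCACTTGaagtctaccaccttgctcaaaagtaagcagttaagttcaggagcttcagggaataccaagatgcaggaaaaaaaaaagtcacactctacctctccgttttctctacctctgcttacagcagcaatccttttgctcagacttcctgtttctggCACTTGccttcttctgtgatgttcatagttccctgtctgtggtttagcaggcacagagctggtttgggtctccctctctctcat
Dntt, chr19:41029025-41029324, plus strand: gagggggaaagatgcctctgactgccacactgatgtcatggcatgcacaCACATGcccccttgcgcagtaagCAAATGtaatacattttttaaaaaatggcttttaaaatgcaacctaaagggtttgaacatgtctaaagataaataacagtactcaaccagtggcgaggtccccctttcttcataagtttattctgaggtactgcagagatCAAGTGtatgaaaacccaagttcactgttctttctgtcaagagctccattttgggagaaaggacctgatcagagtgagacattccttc

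The Tcf3 window held 1 E-box and no Ikaros core. The Il7r window held 3 E-boxes and 2 cores, and the Dntt window held 3 E-boxes and 1 core. Neither word was found in the Notch1 window. One of the 5 listed Satb1 starts held 5 E-boxes and 3 cores.

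The expected counts summed to between 12098498 and 17904629 per library. Cxcl10 itself was listed at 0 FPKM in all 3 Cxcl10-/- libraries, with 7.94, 31.9 and 13.3 FPKM in Cxcr3-/- libraries, against 2.29, 5.03 and 0.15 FPKM in WT libraries. Cxcr3 was listed at 0 in the Cxcr3-/- libraries but also in 2 of the 3 WT libraries, so its level does not check that label. All 14 LT-HSC markers were above 0 in every library, with sums of 1218 to 1316 FPKM in Cxcl10-/-, 1068 to 1168 in Cxcr3-/- and 1178 to 1300 in WT cells. Of the genes for the sorted surface proteins, Kit (c-Kit) averaged 66.5 ± 18.5 FPKM in Cxcl10-/- and 104.7 ± 6.00 FPKM in WT cells and was the only one of these 14 markers that passed there (log2 fold change -0.75, edgeR adjusted p = 0.0260). Slamf1 (CD150) had 0.69, 0.71 and 4.12 FPKM in Cxcl10-/- libraries, against 6.87, 7.40 and 5.23 FPKM in WT libraries, and did not pass (edgeR adjusted p = 0.119). Ly6a (Sca-1) averaged 335.6 FPKM in Cxcl10-/- and 312.8 FPKM in WT cells and did not pass (edgeR adjusted p = 0.998). The Cxcl10-/- libraries stood apart in other ways. They had 12561 to 13910 genes above 0, against 14510 to 16023 in WT libraries, and mitochondrial genes took 3.57 to 4.13% of their counts, with 10.2 to 11.2% in Cxcr3-/- libraries, against 12.6 to 13.1% in WT libraries, so both knockouts lay under WT. All 9 endothelial markers were above 0 in them and summed to 430 to 596 FPKM, against 55.3 to 75.1 FPKM, with 7 to 9 above 0, in WT cells. Fabp4 made up most of that sum (360.9 ± 85.6 FPKM in Cxcl10-/- and 9.94 ± 7.18 FPKM in WT cells). With Stab1, Stab2 and Cldn5 it was among the 4 of 9 that passed, while Emcn averaged 43.5 FPKM in Cxcl10-/- and 43.6 FPKM in WT cells and Pecam1 averaged 7.55 FPKM in Cxcl10-/- and 6.11 FPKM in WT cells. Stromal and bone markers summed to 82.5 to 339 FPKM, with 6 or 7 of 8 above 0, against 1.61 to 6.06 FPKM and 4 or 5 above 0 in WT cells. The 7 erythroid markers summed to 65.8 to 406 FPKM in Cxcl10-/- and 47.5 to 74.1 FPKM in WT cells, with Hba-a1 passing (edgeR adjusted p = 0.0215). The number of genes above 0, the mitochondrial share and the endothelial and stromal sums separate all Cxcl10-/- from all WT libraries. These traits and the genotype therefore cannot be told apart. The erythroid sum does not separate them, since the first Cxcl10-/- library (65.8 FPKM) lay within the WT range. In such bulk samples, fewer cells of a type and less RNA per cell cannot be told apart either.

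Among the lymphoid priming genes, 1 of 8 passed in Cxcl10-/- against WT cells, Lsp1, which was 1.87-fold higher. No member passed in Cxcr3-/- cells, whether set against WT or against Cxcl10-/- cells. Tcf3 had about the same fold change in both knockouts, but it did not pass in either. The remaining 6 tested members did not pass in any comparison, and Il7r and Dntt were at or near 0 in every library. Levels spanned nearly the same order in each genotype, with Lsp1 highest, followed by Bcl11a, Cd52, Ikzf1, Ikzf2 and Tcf3. In Cxcr3-/- and WT cells Notch1 came 7th and Satb1 8th, and in Cxcl10-/- cells that pair was swapped. Neighbours with overlapping libraries were Lsp1 with Bcl11a and Notch1 with Satb1 in WT cells. In Cxcr3-/- cells they were Cd52 with Ikzf1 and Ikzf2 with Tcf3. In Cxcl10-/- cells every neighbouring pair but Lsp1 with Bcl11a and Tcf3 with Satb1 overlapped.

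**Figure D1:**
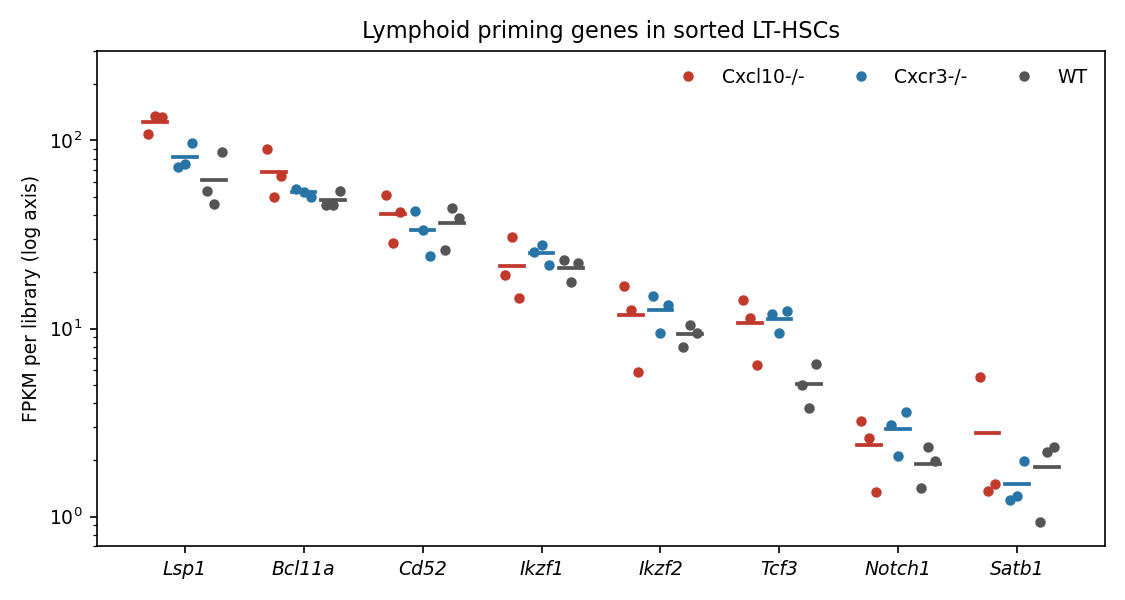
FPKM (log axis) of the 8 tested lymphoid priming genes in each of 9 libraries, 3 per genotype, with a bar at the mean of each group. Lsp1 lies at 109 to 134 FPKM in the Cxcl10-/- libraries, above all WT libraries, and Tcf3 lies at 9.5 to 12.5 FPKM in the Cxcr3-/- libraries, also above all WT libraries. Il7r and Dntt are left out because nearly all their values are 0.

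Of the transcription factors, Tcf3 encodes the E proteins E12 and E47, which are needed for lymphoid priming and for B cell development in mice. Its level was 14.1, 11.4 and 6.36 FPKM in the Cxcl10-/- libraries, 11.9, 9.5 and 12.5 FPKM in the Cxcr3-/- libraries, and 4.98, 3.77 and 6.45 FPKM in the WT libraries. All Cxcr3-/- libraries were above all WT libraries, while 1 Cxcl10-/- library, the third, lay within the WT range. The means were 10.6 ± 3.94, 11.3 ± 1.57 and 5.07 ± 1.34 FPKM in Cxcl10-/-, Cxcr3-/- and WT cells (SD, 3 libraries each). The log2 fold change in Cxcr3-/- against WT cells was 1.08 ± 0.37 (SE), with a 95% interval of 0.28 to 1.89 and an edgeR adjusted p of 0.667. By its unadjusted p of 0.0127 it ranked 204th of the 10866 genes. In Cxcl10-/- against WT cells the log2 fold change was 0.89 ± 0.37, with an interval of 0.08 to 1.69 and an edgeR adjusted p of 0.164. Between the knockouts, Cxcr3-/- against Cxcl10-/-, the difference was 0.20 ± 0.37 and did not pass (edgeR adjusted p = 0.787). Both comparisons with WT use the same 3 WT libraries, so these values are not independent.

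Bcl11a, a zinc finger factor that mice need to make B cells and other lymphocytes, was the second most abundant member. It had 90.3, 50.1 and 64.5 FPKM in Cxcl10-/-, 55.3, 53.5 and 50.2 FPKM in Cxcr3-/- and 45.5, 45.1 and 53.8 FPKM in WT libraries. The first Cxcl10-/- library was well above all others, and the second lay within the WT range. Its log2 fold change was 0.37 ± 0.18 in Cxcl10-/- against WT cells (95% interval -0.03 to 0.77, edgeR adjusted p = 0.239). Its value in Cxcr3-/- against WT cells was 0.08 ± 0.18, with an interval of -0.32 to 0.47 (edgeR adjusted p = 0.997).

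Ikzf1 encodes Ikaros, a zinc finger factor of lymphoid priming. Its level was 19.3, 30.6 and 14.6 FPKM in Cxcl10-/- libraries, 25.6, 27.8 and 21.9 FPKM in Cxcr3-/- libraries and 23.3, 17.6 and 22.4 FPKM in WT libraries. The groups overlapped, and the Cxcl10-/- libraries held both the highest and the lowest value. The log2 fold change was -0.12 ± 0.24 in Cxcl10-/- (95% interval -0.66 to 0.41, edgeR adjusted p = 0.804) and 0.20 ± 0.24 in Cxcr3-/- cells, each against WT (edgeR adjusted p = 0.973). Ikzf2 encodes Helios, a relative of Ikaros known from stem cells and regulatory T cells. It had 16.9, 12.6 and 5.88 FPKM in Cxcl10-/-, 14.9, 9.5 and 13.3 FPKM in Cxcr3-/- and 8.02, 10.4 and 9.47 FPKM in WT libraries. The third Cxcl10-/- library was the lowest of all 9, although the other two were above every WT library. Neither knockout differed from WT past the threshold, with log2 fold changes of 0.25 ± 0.32 in Cxcl10-/- and 0.39 ± 0.32 in Cxcr3-/- cells (edgeR adjusted p = 0.683 and 0.941).

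Satb1, a chromatin organiser that raises the lymphoid potential of mouse stem cells, was the weakest of the tested members in Cxcr3-/- and WT cells on the FPKM scale. It had 5.52, 1.37 and 1.49 FPKM in Cxcl10-/- libraries, 1.23, 1.29 and 1.97 FPKM in Cxcr3-/- libraries and 0.94, 2.2 and 2.35 FPKM in WT libraries. The first Cxcl10-/- library was above all others, and all other values lay between 0.94 and 2.35 FPKM. Its counts, scaled to library size with TMM factors (CPM), differed less: 18.4, 8.08 and 8.69 in Cxcl10-/-, 7.24, 8.07 and 12.2 in Cxcr3-/- and 4.94, 10.9 and 14.9 in WT libraries. For a fixed transcript length, a gene's counts per FPKM, relative to the library's other genes, should be equal in every library. For Satb1 this ratio was 0.594 in the first Cxcl10-/- library, 0.829 and 0.809 in the first and second WT libraries, and 0.977 to 1.05 in the others. The highest was 1.77 times the lowest, against 1.05 to 1.22 for the other 7 members. Over the 7053 tested genes with at least 100 counts in every library, the median was 1.06 and the 90th percentile 1.66. Satb1 is not one of those genes, with 66 expected counts in the first WT library. The FPKM and the counts of Satb1 thus set the libraries apart by different amounts, and transcript-level values were not analysed here. On counts, the log2 fold change was 0.19 ± 0.60 in Cxcl10-/- (95% interval -1.10 to 1.49) and -0.16 ± 0.60 in Cxcr3-/- cells against WT (edgeR adjusted p = 0.882 and 0.997). These intervals are the widest among the members, and a change of 2-fold in either direction lies within both. Without the first Cxcl10-/- library, the Cxcl10-/- value was -0.29.

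**Figure D2:**
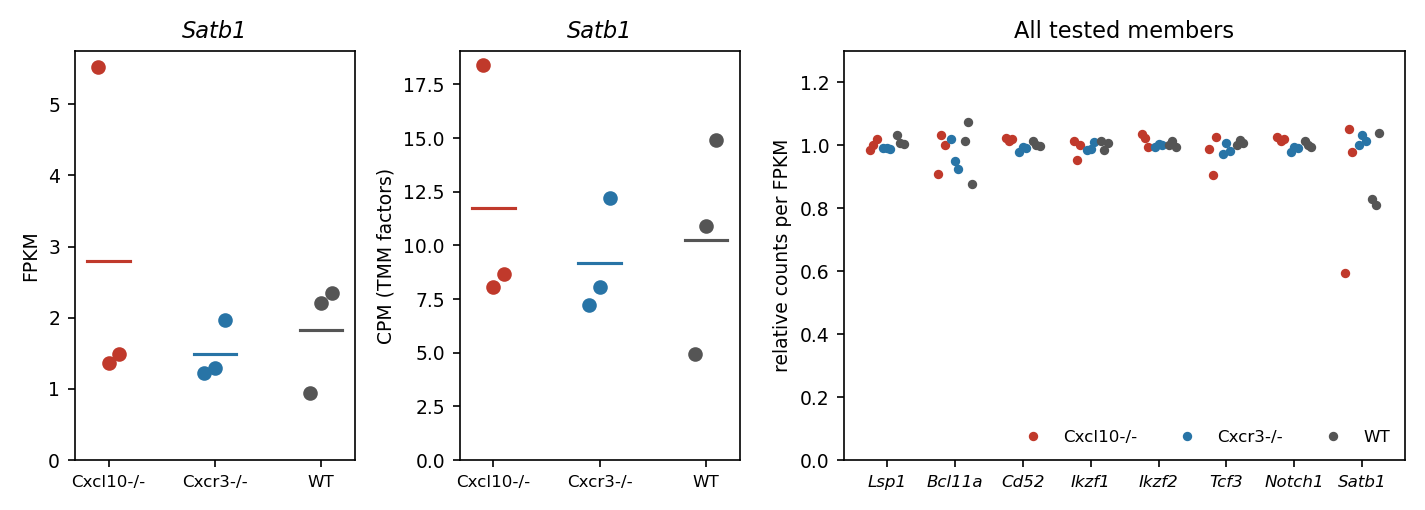
Left, Satb1 in FPKM. Middle, Satb1 in CPM with TMM factors, with bars at group means. Right, counts per FPKM of each of the 8 tested members in each library, relative to that library's other genes and to the gene's own level. Points at 1 mean that counts and FPKM differ from other libraries by the same factor, and Satb1 in the first Cxcl10-/- library lies at 0.594.

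Of the receptors, Notch1 directs early progenitors toward the T lineage when it meets its ligands. It had 3.22, 2.63 and 1.35 FPKM in Cxcl10-/- libraries, 3.08, 2.10 and 3.59 FPKM in Cxcr3-/- libraries and 1.41, 2.33 and 1.98 FPKM in WT libraries. The groups overlapped, and the third Cxcl10-/- library was the lowest of all. Its log2 fold change was 0.24 ± 0.40 in Cxcl10-/- and 0.56 ± 0.40 in Cxcr3-/- cells against WT (edgeR adjusted p = 0.768 and 0.914). Il7r encodes the alpha chain of the interleukin-7 receptor, the main growth signal of mouse B and T cell precursors. It was listed at 0 in all Cxcl10-/- and WT libraries and at 0.04, 0 and 0.19 FPKM in the Cxcr3-/- libraries, where it rested on 2, 0 and 8 expected counts. A sum of 0 counts over a group allows up to 3 counts, or 0.0689 CPM in Cxcl10-/- and 0.0631 in WT cells, from counting error alone. Dntt encodes terminal deoxynucleotidyl transferase, which adds nucleotides at the joints of rearranged antigen receptor genes. It was at 0 in all libraries but 1, the third WT library, which had 0.03 FPKM from 1 count. Neither gene could be compared at this depth.

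Cd52 encodes a small GPI-anchored glycoprotein of lymphocytes and other leukocytes. Its level was 51.3, 28.5 and 41.5 FPKM in Cxcl10-/- libraries, 42.2, 33.5 and 24.4 FPKM in Cxcr3-/- libraries and 26.3, 43.9 and 38.6 FPKM in WT libraries. The 3 groups overlapped throughout. The log2 fold change was 0.08 ± 0.40 in Cxcl10-/- (95% interval -0.80 to 0.96) and -0.18 ± 0.41 in Cxcr3-/- cells against WT (edgeR adjusted p = 0.934 and 0.997). Cd52 shares 172 exon bases with Crybg2 on the opposite strand in GENCODE M21, but Crybg2 did not exceed 0.44 FPKM in any library.

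Lsp1 encodes leukocyte-specific protein 1, which binds F-actin and is also found in endothelial cells. It had 109, 134 and 134 FPKM in Cxcl10-/- libraries, 72.3, 74.5 and 97.3 FPKM in Cxcr3-/- libraries and 53.6, 45.8 and 86.5 FPKM in WT libraries. All Cxcl10-/- libraries were above all Cxcr3-/- and all WT libraries, and the Cxcr3-/- and WT ranges overlapped through the third WT library. Group means were 126 ± 14.7, 81.4 ± 13.8 and 62.0 ± 21.6 FPKM in Cxcl10-/-, Cxcr3-/- and WT cells (SD, 3 libraries each). In Cxcl10-/- against WT cells the log2 fold change was 0.90 ± 0.25 (95% interval 0.36 to 1.44), which passed narrowly (edgeR adjusted p = 0.0488). Set against WT, Cxcr3-/- cells gave 0.33 ± 0.25 and did not pass (edgeR adjusted p = 0.924). The knockouts themselves did not differ past the threshold, since Cxcr3-/- against Cxcl10-/- cells gave -0.57 ± 0.25 (95% interval -1.11 to -0.04, edgeR adjusted p = 0.163). Endothelial markers also summed higher in Cxcl10-/- cells (430 to 596 FPKM) than in Cxcr3-/- (40.4 to 72.9 FPKM) or WT cells (55.3 to 75.1 FPKM). Within WT the third library had the highest Lsp1 and the lowest endothelial sum. Within Cxcl10-/- the first library was lowest in both (108.9 and 430.3 FPKM). The second Cxcl10-/- library was highest in both (134.3 and 595.9 FPKM), with Lsp1 close to that of the third (134.1 FPKM). Within Cxcr3-/- the third library was highest in both (97.3 and 72.9 FPKM). The part of these markers in the difference of Lsp1 was not tested.

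The call of Lsp1 lay close to the threshold. Of 20 other settings of the analysis, 9 called it and 11 did not, with log2 fold changes of 0.71 to 1.19 and adjusted p from 0.00806 to 0.193. It was lost without the first WT library (adjusted p = 0.162), the second WT library (0.193), the second or the third Cxcl10-/- library (0.0753 and 0.0894) or any one Cxcr3-/- library (0.0575 to 0.0655), all by edgeR. It was also lost with RLE factors (0.0509), the filterByExpr filter (0.0522), mitochondrial genes left out (0.0541) and only the 2 groups in the fit (0.0802).

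**Figure D3:**
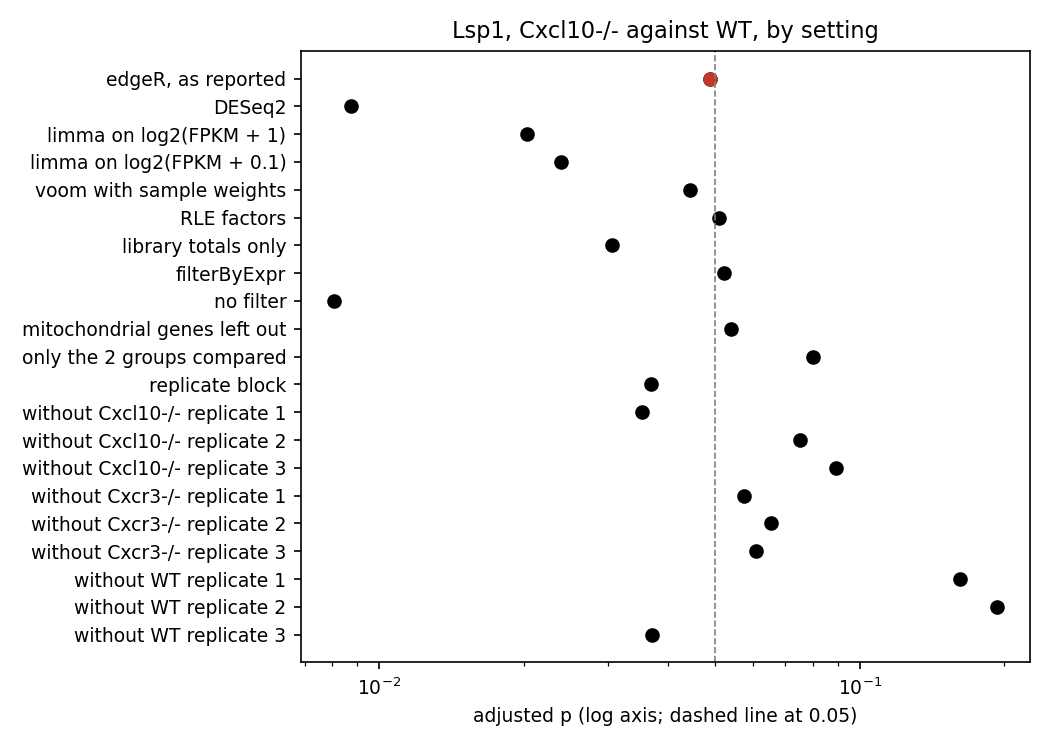
Adjusted p (log axis) of Lsp1 in Cxcl10-/- against WT cells under the reported edgeR analysis (red) and 20 other settings (black), with a dashed line at 0.05. The reported value is 0.0488, and 11 of the 20 other settings lie to the right of the line, the farthest at 0.193 without the second WT library.

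The calls among the members are read against the calls over all genes. In Cxcl10-/- against WT cells, 7.22% of all 10866 tested genes passed (785), 3.52% as higher and 3.7% as lower in Cxcl10-/- cells, and 1 of 8 members passed, as higher. At an unadjusted p under 0.05 there were 2 of 8 members, Lsp1 and Tcf3, and 24.3% of all genes. Only Lsp1 was without overlap and higher in Cxcl10-/- cells, as were 18.3% of all genes. For Cxcr3-/- against WT cells no gene passed with edgeR (0%), although 681 genes, 6.27%, had an unadjusted p under 0.05, Tcf3 among them. DESeq2 called 68 genes there, voom 39 and limma 0, and none of these was a member. Tcf3 alone was without overlap and higher in Cxcr3-/- than in WT cells, as were 12.1% of all genes. Between the knockouts, 10.5% of all genes passed in Cxcr3-/- against Cxcl10-/- cells (1142), 5.1% as higher and 5.41% as lower in Cxcr3-/- cells, and no member did. Lsp1 was the member without overlap and lower in Cxcr3-/- cells, as were 16.4% of genes, and the one with an unadjusted p under 0.05, as had 26.2% of genes. The joint test of any difference among the 3 genotypes passed for 8.39% of genes and for no member, with Lsp1 nearest (edgeR adjusted p = 0.0784). The 6 members other than Lsp1 and Tcf3 had log2 fold changes of -0.35 for Satb1 to 0.32 for Ikzf1 and Notch1 in Cxcr3-/- against Cxcl10-/- cells, with edgeR adjusted p of 0.337 for Bcl11a to 0.829 for Ikzf2.

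**Figure D4:**
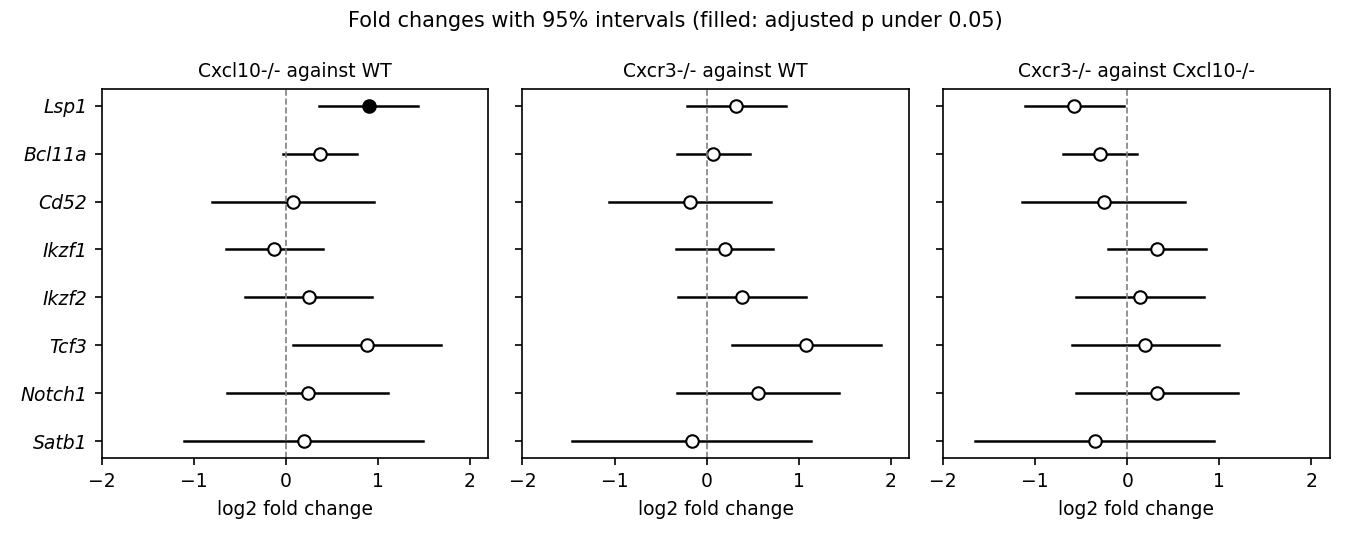
Log2 fold change of the 8 tested members in the 3 comparisons, with 95% intervals from the edgeR analysis. The filled point, Lsp1 in Cxcl10-/- against WT cells at 0.90, is the one value that passed, and the intervals of Tcf3 against WT lie above 0 in both knockouts without passing over all genes.

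By sign, 7 of 8 members were above 0 in Cxcl10-/- against WT cells, with a median log2 fold change of 0.24, against 0.06 and 53.7% above 0 over all tested genes. For Cxcr3-/- against WT cells 6 of 8 were above 0, with a median of 0.26, against 0.02 and 52.1% over all genes. For Cxcr3-/- against Cxcl10-/- cells, 4 of 8 were above 0 and the median was -0.06, against -0.05 over all genes. The summed FPKM of the 10 members was 309.6, 271.5 and 269.8 in Cxcl10-/-, 226.6, 211.7 and 225.3 in Cxcr3-/- and 164.0, 171.2 and 221.5 in WT libraries. Lsp1 and Bcl11a made up most of that sum.

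The spread among mice of 1 genotype also differed. In 7 of 8 members the ratio of the highest to the lowest library was widest in Cxcl10-/- cells, as it was for 62.0% of the 10163 tested genes above 0 in every library. Its median over the members was 2.16 in Cxcl10-/-, 1.46 in Cxcr3-/- and 1.66 in WT cells, and over those genes it was 2.04 in Cxcl10-/-, 1.57 in Cxcr3-/- and 1.45 in WT cells. The first Cxcl10-/- library was the highest of its group for 6 of 8 members, Tcf3, Ikzf2, Satb1, Cd52, Notch1 and Bcl11a, as it was for 36.9% of all genes. The third was the lowest for 4 of 8, Tcf3, Ikzf1, Ikzf2 and Notch1, as it was for 37.4% of all genes.

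Other genes of the same pathways were taken from 5 lists. Of their 68 tested genes, 5 passed in Cxcl10-/- against WT cells, where 7.22% of all genes did, and 8 in Cxcr3-/- against Cxcl10-/- cells, where 10.5% of all genes did, so the lists as a whole lay near the share over all genes. In Cxcl10-/- against WT cells the median log2 fold change was 0.35 for other early lymphoid genes, 0.49 for interleukin-7 receptor signalling and 0.29 for the Notch pathway. It was -0.06 for E proteins and partners and -0.02 for Ikaros relatives and partners, against 0.06 over all genes. No list was tested as a group. Summed endothelial and stromal markers were higher in Cxcl10-/- cells (430 to 596 and 82.5 to 339 FPKM) than in WT cells (55.3 to 75.1 and 1.61 to 6.06 FPKM). The erythroid sums overlapped, at 65.8 to 406 FPKM in Cxcl10-/- and 47.5 to 74.1 FPKM in WT cells. These sums all peaked in the second Cxcl10-/- library. Of the genes that passed as higher than in WT, Mcl1 was highest of its group in that library, while Pim1, Smarca4, Stat3 and Notch2 were lowest. The part of these markers in the differences was not tested. Of 20 other early lymphoid genes, 10 were weak. In these, among them Rag1, Rag2, Ebf1, Pax5 and Tcf7, the mean was under 1 FPKM, and no library exceeded 2.13 FPKM. Of the 10 tested, none passed with edgeR against WT in either knockout. At an unadjusted p under 0.05 there were 2 in Cxcl10-/- and 1 in Cxcr3-/- cells, beside 24.3% and 6.27% of all genes. DESeq2 called 1 of them in Cxcl10-/- against WT cells, and limma and voom called 0. With edgeR 1 rose and 1 fell in Cxcr3-/- against Cxcl10-/- cells. Cd27, a TNF receptor family member of lymphocytes and progenitors, had 44.4, 45.2 and 27.7 FPKM in Cxcr3-/- and 105.5, 85.3 and 69.6 FPKM in Cxcl10-/- libraries, a log2 fold change of -1.10 ± 0.28 (edgeR adjusted p = 0.0278). Sox4, an HMG factor that mice need to make B cells, had 37.8, 30.4 and 49.8 FPKM in Cxcr3-/- and 25.7, 26.3 and 19.0 FPKM in Cxcl10-/- libraries, a change of 0.77 ± 0.21 (edgeR adjusted p = 0.0382). The groups did not overlap for either gene. Leaving out the first Cxcl10-/- or the first or the third Cxcr3-/- library ended the call of Cd27 (adjusted p 0.0539 to 0.101), and leaving out the third Cxcl10-/-, the first or the third Cxcr3-/- or any WT library ended that of Sox4 (0.0609 to 0.156), all by edgeR.

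Of the E proteins and the proteins they pair with (Tcf4, Tcf12, the Id inhibitors and the Lyl1, Tal1, Lmo2 and Ldb1 complex), 9 of 10 were tested, and none passed with edgeR in any comparison. At an unadjusted p under 0.05 there were 3 in Cxcl10-/- and 0 in Cxcr3-/- cells, each against WT, and 2 between the knockouts. DESeq2 called 2 and limma and voom 1 each in Cxcl10-/- against WT cells, where they called 1498, 1008 and 595 of all 10866 genes. Between the knockouts limma called 1, and 1359 of all genes. The median log2 fold changes of the 9 tested genes were -0.06 in Cxcl10-/- and 0.15 in Cxcr3-/- against WT cells.

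Of Ikaros relatives and chromatin partners, 17 of 19 were tested, while Ikzf3 and Ikzf4 lay under the minimum. One rose in Cxcl10-/- against WT cells, none passed in Cxcr3-/- against WT cells, and 2 rose and 1 fell in Cxcr3-/- against Cxcl10-/- cells, beside 7.22%, 0% and 10.5% of all genes. Smarca4, the ATPase of the SWI/SNF remodelling complex, had 20.9, 13.0 and 13.4 FPKM in Cxcl10-/-, 5.44, 6.87 and 5.81 FPKM in Cxcr3-/- and 5.58, 5.91 and 8.95 FPKM in WT libraries. Its log2 fold change was 1.11 ± 0.29 in Cxcl10-/- against WT cells and -1.32 ± 0.29 in Cxcr3-/- against Cxcl10-/- cells (edgeR adjusted p = 0.0387 and 0.0155), and all Cxcl10-/- libraries were above the rest. Ikzf5, which encodes the Ikaros relative Pegasus, had 16.0, 14.5 and 13.3 FPKM in Cxcr3-/- and 7.52, 7.17 and 6.71 FPKM in Cxcl10-/- libraries (log2 fold change 1.29 ± 0.31, edgeR adjusted p = 0.0211). Rbbp4, a histone-binding subunit of the NuRD complex that Ikaros recruits, was 0.86 ± 0.25 higher in Cxcr3-/- than in Cxcl10-/- cells on the log2 scale (edgeR adjusted p = 0.0463). That call held in 4 of 20 other settings and ended when any library but the second Cxcl10-/- was left out (adjusted p 0.0654 to 0.153). The Smarca4 call against WT ended without the first Cxcl10-/-, the second or the third Cxcr3-/- or any WT library (0.0534 to 0.155), and that between knockouts without the first (0.0696) or the third (0.0505) Cxcr3-/- library. The Ikzf5 call ended without the first Cxcr3-/- library (adjusted p = 0.0912, edgeR throughout).

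In interleukin-7 receptor signalling, Il7r itself was at or near 0, while 14 of 16 other genes were tested. In Cxcl10-/- against WT cells 3 of them rose, where 7.22% of all genes passed, and in Cxcr3-/- against Cxcl10-/- cells 2 fell, where 10.5% passed. Il2rg encodes the common gamma chain that several cytokine receptors share with Il7r. It had 57.2, 104.8 and 93.8 FPKM in Cxcr3-/-, 270.1, 216.5 and 244.1 FPKM in Cxcl10-/- and 194.3, 169.6 and 153.9 FPKM in WT libraries. It fell by 1.5 ± 0.24 on the log2 scale in Cxcr3-/- against Cxcl10-/- cells (edgeR adjusted p = 0.00374), a call that all 20 other settings kept. Against WT the Cxcr3-/- value was -1.08 ± 0.23, without overlap of the libraries but not past the threshold (edgeR adjusted p = 0.552).

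The 3 genes of that pathway that rose in Cxcl10-/- against WT cells act at its end or in other cytokine pathways too. Mcl1, an anti-apoptotic BCL2 relative, had 72.0, 79.5 and 71.4 FPKM in Cxcl10-/-, 41.3, 31.8 and 44.4 FPKM in Cxcr3-/- and 32.0, 40.6 and 41.1 FPKM in WT libraries. Its log2 fold change was 0.89 ± 0.18 in Cxcl10-/- against WT and -0.90 ± 0.18 in Cxcr3-/- against Cxcl10-/- cells (edgeR adjusted p = 0.0131 and 0.0101). Pim1, a kinase induced by cytokines through STAT factors, had 51.2, 29.3 and 32.4 FPKM in Cxcl10-/- and 10.5, 14.7 and 14.4 FPKM in WT libraries, a change of 1.42 ± 0.31 (edgeR adjusted p = 0.0192). Stat3, a transcription factor of several cytokine receptors, had 29.9, 25.2 and 32.6 FPKM in Cxcl10-/- and 14.7, 16.1 and 18.1 FPKM in WT libraries, a change of 0.76 ± 0.19 (edgeR adjusted p = 0.0377). In all 3, every Cxcl10-/- library was above every WT library. Leaving out any one WT library ended these calls against WT, with adjusted p of 0.05001 to 0.0706 for Mcl1, 0.0681 to 0.0892 for Pim1 and 0.0955 to 0.146 for Stat3. The Stat3 call also ended without the third Cxcl10-/- (0.0705) and the second or the third Cxcr3-/- library (0.0533 and 0.0557), all by edgeR.

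In the Notch pathway 18 of 26 other genes were tested, 1 rose in Cxcl10-/- against WT cells and 1 rose in Cxcr3-/- against Cxcl10-/- cells, no more than the 7.22% and 10.5% of all genes that passed. Of the ligands, Dll1, Dll4 and Jag1 lay under the minimum, as did the targets Hey1 and Dtx1. Notch2, a receptor known for marginal zone B cells, had 19.7, 15.5 and 21.9 FPKM in Cxcl10-/-, 10.8, 12.4 and 14.7 FPKM in Cxcr3-/- and 10.2, 9.47 and 11.1 FPKM in WT libraries. Its log2 fold change was 0.81 ± 0.20 in Cxcl10-/- against WT cells (edgeR adjusted p = 0.0370), beside 0.24 for Notch1. Adam10, the protease that makes the first cut of a ligand-bound Notch receptor, had 74.8, 58.5 and 63.8 FPKM in Cxcr3-/- and 48.0, 44.7 and 41.5 FPKM in Cxcl10-/- libraries (0.58 ± 0.14, edgeR adjusted p = 0.0262). The Notch2 call ended without the first or the third Cxcl10-/-, the second Cxcr3-/- or any WT library (adjusted p 0.0505 to 0.155), and the Adam10 call without the third Cxcl10-/-, the first or the third Cxcr3-/- or the second WT library (0.0503 to 0.0891), all by edgeR. No gene of these 5 lists passed with edgeR in Cxcr3-/- against WT cells, where 7 of the 68 tested had an unadjusted p under 0.05, as had 6.27% of all genes. DESeq2 and voom each called 1 of them there, Il2rg, and limma called 0. Of 20 other settings, 16 kept the call of Cd27 and 9 that of Sox4, 17 that of Ikzf5, Pim1 and of Mcl1 against WT, 11 that of Stat3, Adam10 and of Smarca4 against WT, and 9 that of Notch2. Between the knockouts, Smarca4 kept its call in 18 and Mcl1 in 20.

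**Figure D5:**
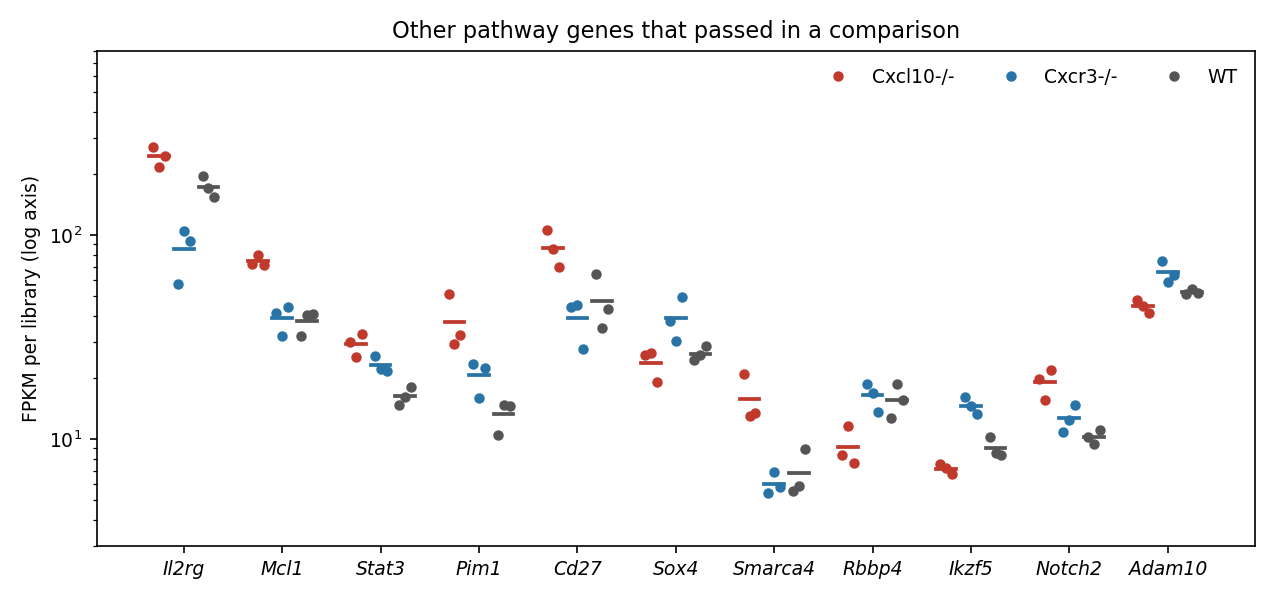
FPKM (log axis) per library of the 11 other pathway genes that passed in at least 1 comparison, with bars at group means. Il2rg, Mcl1, Pim1, Cd27, Smarca4 and Notch2 lie highest in the Cxcl10-/- libraries, and Rbbp4, Ikzf5 and Adam10 lie lowest there, without overlap. For Stat3 and Sox4 the Cxcl10-/- libraries overlap another group. The WT points show where each knockout stands.

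Flt3 encodes CD135, by whose absence the cells had been sorted, and marks lymphoid-primed progenitors in mice. It had 13.8, 9.70 and 6.45 FPKM in Cxcl10-/-, 6.00, 6.91 and 8.61 FPKM in Cxcr3-/- and 4.17, 6.08 and 4.75 FPKM in WT libraries. Its transcript was thus above 0 in every library, and it did not pass in any comparison, with edgeR adjusted p of 0.150 in Cxcl10-/- and 0.924 in Cxcr3-/- against WT cells. Of the B and T cell markers, Ms4a1, Cd3e and Cd3d stayed at or under 0.13 FPKM in every library, while Cd79b averaged 94.3 ± 48.7 FPKM in Cxcl10-/- and 58.0 ± 11.1 FPKM in WT cells and did not pass (edgeR adjusted p = 0.539). The 12 T and NK cell markers summed to 180 to 243 FPKM with 5 to 7 above 0 in Cxcl10-/-, 212 to 413 FPKM with 7 to 9 above 0 in Cxcr3-/- and 341 to 415 FPKM with 5 to 7 above 0 in WT cells, and Gzma was at 0 in all libraries. Nkg7 made up most of that sum, at means of 196 FPKM in Cxcl10-/-, 305 FPKM in Cxcr3-/- and 357 FPKM in WT cells, and it was lower in Cxcl10-/- than in WT cells (log2 fold change -0.98, edgeR adjusted p = 0.0293). Lck averaged 7.80 FPKM in Cxcl10-/- and 4.90 FPKM in WT cells and did not pass.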

How the data were processed

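RNA of sorted LT-HSCs from 3 Cxcl10-/-, 3 Cxcr3-/- and 3 WT mice was measured in 9 libraries. Per the file headers, the deposited table gives FPKM and counts per gene and library. The authors' count columns hold what were taken to be expected counts: 87.1% of their values are whole and the others have a fraction. In the submitters' processing notes, the tools are fastp, HISAT2, StringTie and RSEM. Versions, build, annotation and use of strand were not given in the sources used here. No molecular identifiers are named, so floors cover counting error only. No overlap with other genes' exons was found in GENCODE M21 for Tcf3, Ikzf1, Lsp1, Il7r and Dntt. Ikzf2, Bcl11a, Notch1 and Satb1 overlap genes that the table does not list.

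Expected counts were rounded and tested in R 4.3.3 with the quasi-likelihood test of edgeR 4.0.16, with TMM factors, 1 mean per genotype and all 9 libraries, over the 10866 genes that averaged 1 FPKM or more. The threshold was an adjusted p (Benjamini-Hochberg, over all of these genes) under 0.05. Errors of fold changes are standard errors. A positive value is higher in the group named first. Alternatives used DESeq2 1.42.0, limma 3.58.1 on log2(FPKM + 1) and log2(FPKM + 0.1), voom with sample weights, other scalings and filters, and leaving out each library. The tools were tested on simulated data. Fold changes of the limma alternatives are on the log2(FPKM + pseudocount) scale, which understates the change of low genes.

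The members, gene lists and tests were chosen with earlier results of these data known. The 10 members were always named. Of each other pathway list, up to 4 genes that passed in a comparison of a pair of genotypes were named by their smallest adjusted p. Genes with a pattern most like a member's were to be named only for members that passed the test of any difference, and none did. Flt3, Slamf1 and single cell type markers were named outside that rule, as checks of the sort, after their values were seen. Id3, Lmo2 and Tcf12 were also named outside it, by their unadjusted p under 0.05. The summed level of the B cell markers is not reported here.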

Additional observations from a re-analysis of the deposited data

How the results depend on the processing

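Over 20 alternatives, the log2 fold changes of the 8 tested members in the 3 comparisons kept their direction and side of the threshold in 457 cases, lost a call in 11 and changed sign in 12. All 11 lost calls were of Lsp1 in Cxcl10-/- against WT cells, among them with RLE factors (adjusted p = 0.0509), the filterByExpr filter (0.0522), mitochondrial genes left out (0.0541) and a fit of only the 2 groups compared (0.0802), where 0 members were called. Leaving out 1 library gave 0 to 1 called members. The 12 sign changes were of values that had not passed. With voom, Cd52 became -0.0536 in Cxcl10-/- against WT cells. The others came from leaving out 1 library. For Cxcl10-/- against WT cells these ranges were -0.41 to 0.0629 for Ikzf1, -0.11 to 0.56 for Ikzf2, -0.29 to 0.56 for Satb1, -0.11 to 0.29 for Cd52 and -0.0265 to 0.50 for Notch1. They changed sign without the third Cxcl10-/- library for Ikzf1 and without the first for the other four, and also without the first WT library for Satb1 (-0.14) and Cd52 (-0.0911). In Cxcr3-/- against WT cells Satb1 ranged from -0.49 to 0.21, positive without the third WT library. For Cxcr3-/- against Cxcl10-/- cells the ranges were -0.0251 to 0.47 for Tcf3 and -0.18 to 0.49 for Ikzf2, both negative without the third Cxcl10-/- library, and -0.61 to 0.13 for Satb1, positive without the first. Counts over all genes moved more. In Cxcl10-/- against WT cells (785 genes) DESeq2 called 1498, no filter 1183, only the 2 groups 414, and leaving out 1 library 193 to 1003, with 229, 193 and 253 without the first, second and the third WT library. In Cxcr3-/- against WT cells (0 genes) DESeq2 called 68, voom 39, no filter 38 and leaving out 1 library 0 to 6. Between the knockouts (1142 genes) DESeq2 called 1814, voom 625, only the 2 groups 423 and leaving out 1 library 423 to 1407. For any difference (912 genes) DESeq2 called 1816, no filter 1588 and leaving out 1 library 400 to 1037. The causes were not tested. Scaling by library totals only gave 566 higher and 324 lower genes in Cxcl10-/- against WT cells, and limma 663 higher and 345 lower, against 383 and 402 as reported. Same-numbered libraries of different genotypes did not vary together (9 pairs, correlation of deviations -0.0816 to 0.0179, with 1 of 9 libraries closest to its own number). These values gave no sign of pairing. They cannot exclude that same-numbered libraries were handled together, since no day, litter or batch is given. A replicate block gave 442 genes in Cxcl10-/- against WT, 833 in Cxcr3-/- against Cxcl10-/- cells and 483 for any difference, and it kept Lsp1 (adjusted p = 0.0369). Depth limits Il7r and Dntt, which rested on 10 counts and 1 count over all libraries.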
